A study of Mus musculus with 40 samples.

Results

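The genes described here make up the core of fatty acid oxidation, pyruvate oxidation and the tricarboxylic acid (TCA) cycle: 37 genes listed by name, with no threshold on a measured value but with earlier results of these data known, all 37 of which are rows of the deposited table of 11450 genes. They fall into a fatty acid group of 20 genes and a pyruvate and TCA group of 17 genes. RNA was sequenced from hearts of adult C57BL/6 mice, an inbred laboratory strain, whose left anterior descending coronary artery had been ligated permanently, which stops blood flow to much of the left ventricle. From each of 20 mice, 4 on each of days 3, 7, 14, 21 and 42 after ligation, a piece of the fibrotic scar (injured) and a piece remote from it in the same heart (uninjured) were sequenced apart, 40 libraries in all. The uninjured region therefore comes from a heart with an infarct on every day, and each library is a mixture of all cells of the dissected piece. Mice of days 3 to 21 carry A labels and those of day 42 carry B labels. What the letters stand for is not given in the sources used here, so day 42 cannot be told apart from whatever they mark. Labels are unique within a day only.

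Heart muscle obtains most of its ATP by oxidizing fuels in mitochondria, and long-chain fatty acids are its main fuel. Fatty acids are taken up, bound and activated to acyl-CoA, passed into the mitochondrion by the carnitine shuttle, and shortened by rounds of beta-oxidation, whose electrons leave through the electron transfer flavoprotein. Pyruvate from glucose or lactate enters instead through the pyruvate dehydrogenase complex, which its kinases switch off, and both routes deliver acetyl-CoA to the TCA cycle.

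For 33 of the 37 genes RefSeq's promoter table (GRCm38.p6) held a window, 42 windows in all, and the 250 bases upstream of the start were searched on both strands for AAGGTCA (a site bound by estrogen-related receptors, which are regulators of oxidative genes), GGGCGG (an Sp1-type GC box), CCAAT and TATAAA. The promoters of 4 genes on which results below turn are printed: the only one with AAGGTCA (Acadm), that of the gene with the smallest p for change over days of its region difference (Hadh), that of the enzyme which opens the TCA cycle (Cs) and that of the gene that varied most between mice of a day in uninjured tissue (Pdk4). Acadm lies on the minus strand and its window is chr3:153944644-153944893; that of Hadh, also minus, is chr3:131272102-131272351. Cs is on the plus strand with the window chr10:128337477-128337726, and Pdk4 on the minus strand with chr6:5496310-5496528, which leaves out 31 bases that GENCODE M21 places inside the gene. Each is read 5′ to 3′ along the strand of the gene, and capitals mark the motifs found, which appear as their reverse complement where they lie on the other strand. None of the motifs searched contains another.
Acadm: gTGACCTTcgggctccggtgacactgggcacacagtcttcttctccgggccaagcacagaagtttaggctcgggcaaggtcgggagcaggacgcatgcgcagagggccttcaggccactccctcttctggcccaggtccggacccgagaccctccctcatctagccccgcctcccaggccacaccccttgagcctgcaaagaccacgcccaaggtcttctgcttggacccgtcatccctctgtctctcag
Hadh: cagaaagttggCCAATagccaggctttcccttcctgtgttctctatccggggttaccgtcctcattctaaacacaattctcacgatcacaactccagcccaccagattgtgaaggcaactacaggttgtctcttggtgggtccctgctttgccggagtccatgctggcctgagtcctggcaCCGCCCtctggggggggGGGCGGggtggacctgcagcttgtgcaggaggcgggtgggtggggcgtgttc
Cs: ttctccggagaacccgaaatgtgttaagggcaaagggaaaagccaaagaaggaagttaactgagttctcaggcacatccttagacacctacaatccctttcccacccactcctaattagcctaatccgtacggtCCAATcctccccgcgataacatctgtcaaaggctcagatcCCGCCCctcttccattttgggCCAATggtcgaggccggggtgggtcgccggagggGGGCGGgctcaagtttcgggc
Pdk4: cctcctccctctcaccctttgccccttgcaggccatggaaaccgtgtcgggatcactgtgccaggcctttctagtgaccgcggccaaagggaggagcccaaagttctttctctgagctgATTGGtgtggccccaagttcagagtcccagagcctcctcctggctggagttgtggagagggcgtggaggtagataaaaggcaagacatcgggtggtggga

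The Hadh and Cs windows each held 2 GGGCGG boxes; CCAAT occurred 2 times in the Cs window and once each in those of Hadh and Pdk4. Over the genes with a window, 1 of 33 (3.03%) had AAGGTCA, against 3.29% of the 8596 genes of the table with a window. For GGGCGG the count was 20 of 33 (60.6%) against 64.9%, and for CCAAT 16 of 33 (48.5%) against 40.1%. TATAAA was found in 0 of 33, against 7.95%. These shares describe the windows and were not tested.

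The deposited values are RPKM, reads scaled to gene length and to library size. Whole reads worked back from them summed to between 10966454 and 22778788 per library, with a median of 576 reads per gene and library. The 12 contractile genes of heart muscle cells summed to 1697 to 7275 RPKM in injured and 20197 to 31827 RPKM in uninjured libraries. The 10 fibroblast markers summed to 1946 to 7043 RPKM in injured and 545 to 1063 RPKM in uninjured libraries. The 12 macrophage and monocyte markers summed to 648 to 2479.9 RPKM in injured and 262 to 425 RPKM in uninjured libraries. All 10 endothelial markers were present, at sums of 134 to 304 RPKM in injured and 221 to 294 RPKM in uninjured libraries. The 2 of 10 adipocyte markers in the table, Cidea and Plin4, summed to 5.97 to 28.4 RPKM in injured and 42.7 to 90.9 RPKM in uninjured libraries. With only 2 of 10 present, their sum cannot stand for fat cells. Its injured medians were lowest on day 7 (7.01 RPKM) and highest on day 42 (23.5 RPKM), as were those of the contractile genes. No marker in the table was at 0 in all libraries of a region.

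All 37 genes were lower in injured than in uninjured tissue on every day. On each of the 5 days 37 of 37 passed the limma test at a Benjamini-Hochberg adjusted p under 0.05 with the mouse as a block, and in every case the 4 injured libraries lay below all 4 uninjured ones. Over all 11390 genes tested, 39.6%, 38.7%, 40.5%, 41% and 38.7% were called lower on days 3, 7, 14, 21 and 42, and 37.3%, 33.9%, 37.3%, 38.3% and 35.1% were lower without overlap, so the whole set lay on a side that held a minority of the genes. The largest adjusted p of any of the 37 was 6.72e-05, for Slc27a1 on day 7. The fatty acid group had median log2 differences of -3.51, -3.47, -2.98, -3.12 and -2.80 on days 3, 7, 14, 21 and 42. Those of the pyruvate and TCA group were -2.83, -3.15, -2.52, -2.62 and -2.15, and the medians of all genes tested lay between 0.027 and 0.055. Under quantile normalization the medians of the pyruvate and TCA group were -1.69, -1.57 and -1.40 on days 14, 21 and 42, and that of the fatty acid group on day 21 was -2.29. In bulk tissue fewer heart muscle cells and less RNA per cell cannot be told apart. On every day the contractile genes were lower, and fibroblast and macrophage markers higher, in injured than in uninjured tissue. The sizes of the differences did not all follow these markers from day to day. The part of the markers in the differences between regions was not tested.

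As a share of all RPKM of a library, which no scaling of whole libraries can move, the 37 genes held 0.3698%, 0.335%, 0.591%, 0.592% and 0.675% in injured tissue on days 3, 7, 14, 21 and 42 (means of 4 mice, SD 0.0342 to 0.113). The share in uninjured tissue was 2.25%, 1.89%, 1.92%, 2.003% and 2.04% (SD 0.0823 to 0.312). The highest injured share, 0.756%, lay below the lowest uninjured share, 1.75%. Injured tissue had its lowest mean share on day 7 and its highest on day 42. Its ranges overlapped between days 3 and 7 (0.313 to 0.475% and 0.302 to 0.373%), and also among days 14, 21 and 42. Scaling the libraries to the recovered reads put the median difference of all genes at 0.25 to 0.46 and the share of calls that were higher in injured tissue at 64.1 to 71.8%, against 51.1 to 52.97% for the deposited values, and 37 of 37 genes were still lower on every day.

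**Figure D1:**
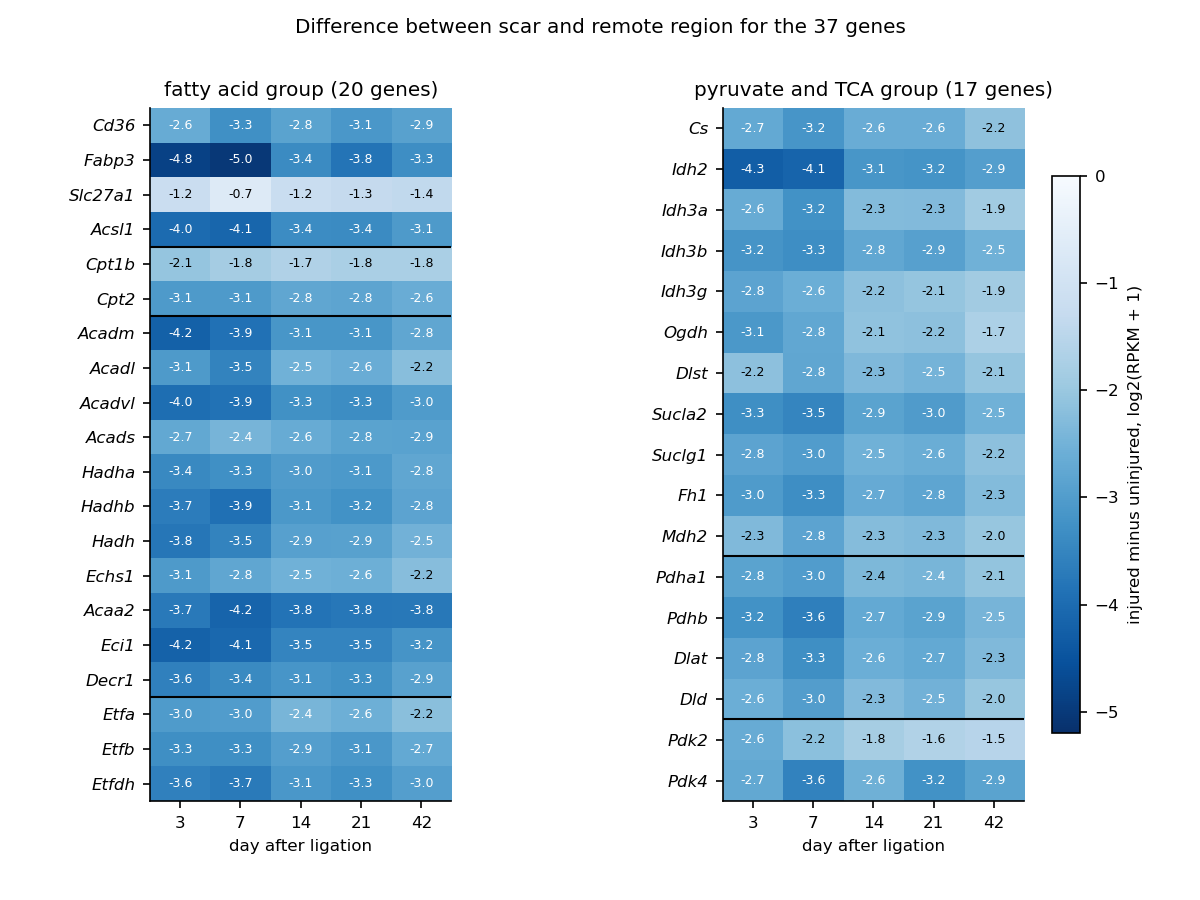
Injured minus uninjured difference in log2(RPKM + 1), from limma with the mouse as a block, for each of the 37 genes (rows, in order of role; lines part the roles) and each day (columns). Every cell is below 0; Fabp3 on day 7 is darkest and Slc27a1 on day 7 lightest.

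The genes of uptake, binding and activation differed most among themselves. Values below are listed in the same order of mice for both regions: A4, A5, A7 and A8 on day 3, A7, A9, A10 and A12 on day 7, A4, A5, A6 and A11 on day 14, A3, A4, A10 and A11 on day 21, and B1, B3, B9 and B12 on day 42.

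Fabp3 encodes the heart fatty acid binding protein, which carries fatty acids through the cytosol, and lies at chr4:130308595-130315463 on the plus strand (mm10, GENCODE M21). Fabp3 had 53.5, 77.01, 35.7 and 78.4 RPKM in the injured libraries of day 3, against 1609, 1798, 1701 and 1667 RPKM in the uninjured ones. The day 7 Fabp3 values were 39.5, 41.5, 22.1 and 44.6 RPKM in injured and 1114, 1283, 1329.9 and 1046 RPKM in uninjured tissue. Injured levels were far below the uninjured ones in every mouse of both days. At day 14, Fabp3 stood at 91.8, 127, 214 and 169.7 RPKM in injured against 1363, 1671, 1674 and 1369.5 RPKM in uninjured tissue. For Fabp3 on day 21 the injured libraries gave 132, 84.6, 122 and 176 RPKM and the uninjured libraries 2048, 1963, 1620.2 and 1554 RPKM. Fabp3 was at 214, 227, 167 and 127 RPKM in injured tissue of day 42 and at 1818, 1799.6, 2043 and 1555 RPKM in uninjured tissue. Every injured library of days 14 to 42 lay above every injured library of days 3 and 7, and still below every uninjured library. Fabp3 thus differed, injured minus uninjured, by -5.02 ± 0.23 on day 7 at the most and -3.32 ± 0.23 on day 42 at the least on the log2(RPKM + 1) scale (limma, SE, 4 mice a day; Benjamini-Hochberg adjusted p at most 2.33e-11). Its change over the days in the injured region alone was 1.98 ± 0.30 between days 7 and 14 (adjusted p 4.85e-05, limma). Fabp3 also had the widest spread between mice of a day in injured tissue, a within-day SD of 0.47 on the log2 scale.

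Slc27a1, a plasma membrane fatty acid transport protein, had the smallest difference of the 37. Slc27a1 had 9.89, 10.8, 11.4 and 11.4 RPKM in the injured libraries of day 3, against 25.3, 20.9, 26.3 and 32.6 RPKM in the uninjured ones. The day 7 Slc27a1 values were 6.42, 6.85, 8.26 and 8.62 RPKM in injured and 10.8, 13.9, 13.04 and 11.8 RPKM in uninjured tissue. The regions came closest on day 7, when uninjured levels were low, and did not overlap. At day 14, Slc27a1 stood at 6.62, 5.58, 6.11 and 6.296 RPKM in injured against 12.4, 16.8, 17.4 and 15.8 RPKM in uninjured tissue. For Slc27a1 on day 21 the injured libraries gave 8.01, 5.87, 7.52 and 8.004 RPKM and the uninjured libraries 23.9, 23.9, 14.4 and 17.99 RPKM. Slc27a1 was at 5.799, 7.23, 5.58 and 5.78 RPKM in injured tissue of day 42 and at 17.5, 17.8, 17.1 and 16.6 RPKM in uninjured tissue. Injured levels after day 7 stayed below the day 3 range, and mouse B3 stood above the other 3 injured libraries of day 42. Slc27a1 thus differed, injured minus uninjured, by -1.37 ± 0.13 on day 42 at the most and -0.65 ± 0.13 on day 7 at the least on the log2(RPKM + 1) scale (limma, SE, 4 mice a day; Benjamini-Hochberg adjusted p at most 6.72e-05). In uninjured tissue its day 7 level differed from that of day 3 by -1.02 ± 0.14 (adjusted p 1.55e-04, limma), and its F test over the days had the smallest p of the 37 genes in that region.

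Cd36, a membrane receptor that admits fatty acids, ranged from 62.2 to 153 RPKM over the 20 injured libraries (median 93.7), against 593 to 939 RPKM over the 20 uninjured ones (median 743). Acsl1, the main acyl-CoA synthetase of heart muscle, which activates fatty acids, ranged from 5.02 to 18.9 RPKM over the 20 injured libraries (median 10.6), against 106 to 180.2 RPKM over the 20 uninjured ones (median 135). The means of Cd36 in injured tissue were 10.05 to 16.02% of those in uninjured tissue across the days, and those of Acsl1 5.04 to 11.6%. Neither gene had an overlap of the regions on any day.

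In the carnitine shuttle, Cpt1b encodes the muscle form of carnitine palmitoyltransferase at the outer mitochondrial membrane and was the lowest of the 37 genes in both regions. Cpt1b had 0.549, 0.5198, 0.403 and 0.495 RPKM in the injured libraries of day 3, against 4.91, 4.82, 5.36 and 5.97 RPKM in the uninjured ones. The day 7 Cpt1b values were 0.111, 0.227, 0.135 and 0.277 RPKM in injured and 3.07, 3.604, 3.504 and 2.84 RPKM in uninjured tissue. The injured libraries of day 7 held the 4 lowest values of the gene. At day 14, Cpt1b stood at 0.525, 0.414, 0.8597 and 0.814 RPKM in injured against 3.26, 4.01, 4.94 and 4.77 RPKM in uninjured tissue. For Cpt1b on day 21 the injured libraries gave 0.599, 0.3596, 0.778 and 1.201 RPKM and the uninjured libraries 5.42, 4.22, 4.39 and 5.31 RPKM. Cpt1b was at 0.769, 0.7704, 0.397 and 0.375 RPKM in injured tissue of day 42 and at 4.29, 4.17, 4.47 and 4.25 RPKM in uninjured tissue. No injured library reached the lowest uninjured one. Cpt1b thus differed, injured minus uninjured, by -2.07 ± 0.093 on day 3 at the most and -1.66 ± 0.093 on day 14 at the least on the log2(RPKM + 1) scale (limma, SE, 4 mice a day; Benjamini-Hochberg adjusted p at most 6.89e-13). The added pseudocount of 1 understates the change of so low a gene: injured means were 5.76 to 15.4% of the uninjured means. The gene lies at chr15:89416405-89425863 on the minus strand and shares 81.4% of its exonic bases with the annotated gene Gm44502 on the same strand, so that its reads may have been split or dropped and its level is uncertain. Cpt2, the enzyme of the inner membrane that completes the shuttle, ranged from 6.56 to 14.1 RPKM over the 20 injured libraries (median 10.7), against 60.5 to 112 RPKM over the 20 uninjured ones (median 80.8).

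Among the 11 beta-oxidation enzymes, Acaa2, the ketoacyl-CoA thiolase that releases acetyl-CoA, had the largest mean difference. Acaa2 had 44.8, 42.7, 40.9 and 44.2 RPKM in the injured libraries of day 3, against 489, 562, 625 and 675 RPKM in the uninjured ones. The day 7 Acaa2 values were 19.1, 21.6, 20.1 and 18.9 RPKM in injured and 298, 429, 456 and 323 RPKM in uninjured tissue. Injured levels of day 7 all lay below those of day 3. At day 14, Acaa2 stood at 24.5, 29.7, 40.6 and 35.6 RPKM in injured against 341, 502, 608 and 489.7 RPKM in uninjured tissue. For Acaa2 on day 21 the injured libraries gave 38.4, 28.5, 37.2 and 39.7 RPKM and the uninjured libraries 650.1, 603, 413 and 386 RPKM. Acaa2 was at 32.97, 33.7, 26.4 and 28.2 RPKM in injured tissue of day 42 and at 517, 430.5, 408 and 341 RPKM in uninjured tissue. The injured values of days 14 to 42 lay between the ranges of day 7 and day 3. Acaa2 thus differed, injured minus uninjured, by -4.15 ± 0.14 on day 7 at the most and -3.73 ± 0.14 on day 3 at the least on the log2(RPKM + 1) scale (limma, SE, 4 mice a day; Benjamini-Hochberg adjusted p at most 7.02e-15). It was 1 of the 7 genes whose region difference did not pass the test of change over the days (adjusted p 0.251).

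Eci1, the isomerase that prepares unsaturated fatty acids for oxidation, followed closely. Eci1 had 10.1, 10.3, 10.04 and 11.8 RPKM in the injured libraries of day 3, against 189, 205, 215 and 241 RPKM in the uninjured ones. The day 7 Eci1 values were 7.53, 8.31, 7.64 and 7.74 RPKM in injured and 134, 166, 168 and 125 RPKM in uninjured tissue. The 4 injured values of day 7 lay close together and below all of day 3. At day 14, Eci1 stood at 11.5, 15.1, 18.1 and 17.4 RPKM in injured against 152, 188, 218 and 187 RPKM in uninjured tissue. For Eci1 on day 21 the injured libraries gave 15.4, 12.5, 15.97 and 19.5 RPKM and the uninjured libraries 228, 219.9, 157 and 157 RPKM. Eci1 was at 17.5, 19.9, 16.9 and 14.7 RPKM in injured tissue of day 42 and at 199, 163, 164 and 133 RPKM in uninjured tissue. Injured levels were higher on days 14 to 42 than on day 7 in all 12 libraries. Eci1 thus differed, injured minus uninjured, by -4.20 ± 0.12 on day 3 at the most and -3.18 ± 0.12 on day 42 at the least on the log2(RPKM + 1) scale (limma, SE, 4 mice a day; Benjamini-Hochberg adjusted p at most 1.07e-14).

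Hadh, the hydroxyacyl-CoA dehydrogenase for shorter chains, had the smallest p of the 37 for a change of its region difference over the days. Hadh had 8.41, 8.796, 7.49 and 10.1 RPKM in the injured libraries of day 3, against 126, 132, 131 and 141 RPKM in the uninjured ones. The day 7 Hadh values were 8.12, 8.19, 7.58 and 7.24 RPKM in injured and 90.4, 116, 115 and 84.7 RPKM in uninjured tissue. Injured values of both days overlapped. At day 14, Hadh stood at 13.03, 13.3, 16.6 and 16.7 RPKM in injured against 102, 119, 139 and 115 RPKM in uninjured tissue. For Hadh on day 21 the injured libraries gave 16.03, 13.1, 15.2 and 15.7 RPKM and the uninjured libraries 154, 148, 96.5 and 88.5 RPKM. Hadh was at 17.2, 17.3, 15.03 and 13.2 RPKM in injured tissue of day 42 and at 115, 80.1, 93.4 and 88.6 RPKM in uninjured tissue. All injured values of days 14 to 42 lay above those of days 3 and 7, while uninjured values spread from 80.1 to 154 RPKM on days 21 and 42. Hadh thus differed, injured minus uninjured, by -3.79 ± 0.12 on day 3 at the most and -2.51 ± 0.12 on day 42 at the least on the log2(RPKM + 1) scale (limma, SE, 4 mice a day; Benjamini-Hochberg adjusted p at most 1.93e-13). The limma F test over the days gave an adjusted p of 1.21e-05 for the difference and 4.41e-08 for the injured region.

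The acyl-CoA dehydrogenases, which take the first step of each round for chains of different lengths, had mean log2 differences over the 5 days of -3.49 for Acadvl (very long), -2.79 for Acadl (long), -3.43 for Acadm (medium) and -2.71 for Acads (short). Acads was also the only gene of the 37 without a called change over the days in injured tissue (F test, adjusted p 0.168, limma). Hadha and Hadhb, the subunits of the trifunctional protein of the inner membrane, averaged -3.11 and -3.35. Echs1, the enoyl-CoA hydratase, averaged -2.63, and Decr1, the dienoyl-CoA reductase, -3.26. Injured means of these 8 genes were between 5.14% (Acadm, day 3) and 21.4% (Acadl, day 42) of the uninjured means.

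Electrons from these dehydrogenases pass to Etfa and Etfb, the subunits of the electron transfer flavoprotein, and on to its oxidoreductase Etfdh. Their mean log2 differences were -2.65, -3.08 and -3.33, with injured means of 11.8 to 21.3%, 8.500 to 13.6% and 6.73 to 12.2% of the uninjured means. Etfb shares 58.2% of its exonic bases with Gm45233 and Mir7051 on its strand and is uncertain for that reason. Exons of Fabp3, Acsl1, Acadvl, Hadha, Echs1, Etfdh, Idh3b and Pdha1 overlap those of a gene on the opposite strand, and whether reads were counted by strand is not given in the sources used here.

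**Figure D2:**
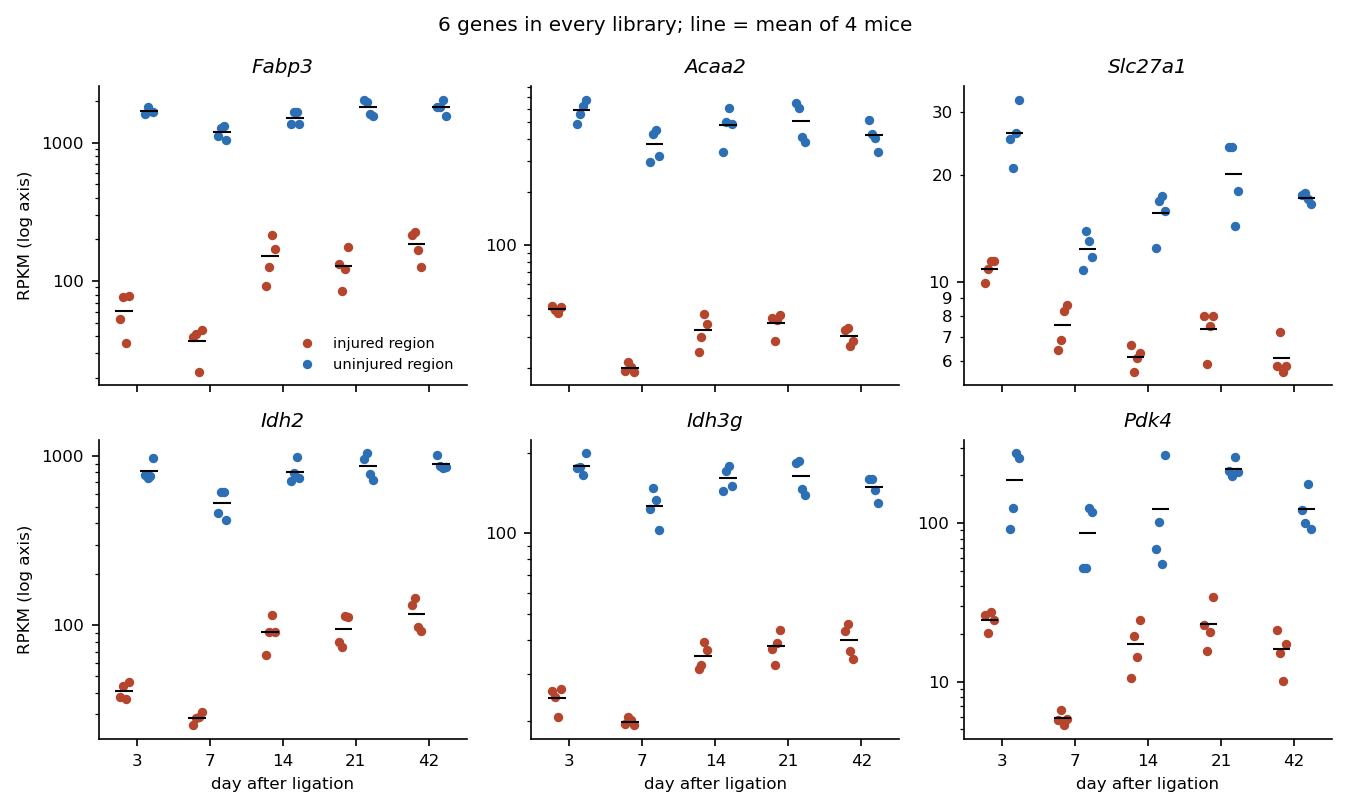
RPKM (log axis) of 6 genes in every library by day, injured region in red at the left and uninjured region in blue at the right of each day; points are mice and lines means of 4. The regions are apart on every day for all 6, and the distance is least for Slc27a1.

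In the TCA cycle Idh2, the mitochondrial isocitrate dehydrogenase that makes NADPH, had the largest difference of its group and the smallest p for a change over the days in injured tissue (8.09e-09, adjusted, limma F test). It lies at chr7:80094846-80115392 on the minus strand. Idh2 had 37.8, 43.8, 36.7 and 46.5 RPKM in the injured libraries of day 3, against 774, 744, 766 and 979 RPKM in the uninjured ones. The day 7 Idh2 values were 25.7, 28.3, 28.99 and 30.7 RPKM in injured and 463, 609, 613 and 419 RPKM in uninjured tissue. All injured values of day 7 lay below those of day 3. At day 14, Idh2 stood at 66.5, 91.9, 115 and 91.6 RPKM in injured against 708, 789.7, 981 and 740.4 RPKM in uninjured tissue. For Idh2 on day 21 the injured libraries gave 80.3, 74.6, 113 and 111 RPKM and the uninjured libraries 962, 1036, 780.5 and 717 RPKM. Idh2 was at 132, 146, 98.1 and 92.6 RPKM in injured tissue of day 42 and at 1012, 867, 844 and 863 RPKM in uninjured tissue. The injured level was higher from day 14 on in every library than in any library of day 3 or day 7. Idh2 thus differed, injured minus uninjured, by -4.27 ± 0.15 on day 3 at the most and -2.95 ± 0.15 on day 42 at the least on the log2(RPKM + 1) scale (limma, SE, 4 mice a day; Benjamini-Hochberg adjusted p at most 4.13e-13). Between days 7 and 14 it changed by 1.63 ± 0.17 in injured tissue (adjusted p 1.86e-06) and by 0.62 ± 0.15 in uninjured tissue (adjusted p 0.009602), and the difference between regions by 1.01 ± 0.22 (adjusted p 0.00284, limma).

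Sucla2, a subunit of succinyl-CoA synthetase, came next in its group. Sucla2 had 18.3, 22.4, 16.8 and 22.2 RPKM in the injured libraries of day 3, against 199.9, 214, 196 and 204 RPKM in the uninjured ones. The day 7 Sucla2 values were 17.4, 16.4, 13.7 and 15.9 RPKM in injured and 191, 206, 205 and 152 RPKM in uninjured tissue. The injured values of both days overlapped. At day 14, Sucla2 stood at 24.2, 26.7, 31.7 and 30.7 RPKM in injured against 198, 217, 229.9 and 199 RPKM in uninjured tissue. For Sucla2 on day 21 the injured libraries gave 23.9, 19.8, 23.7 and 28.5 RPKM and the uninjured libraries 245, 232, 174 and 162 RPKM. Sucla2 was at 37.2, 37.6, 32.7 and 26.7 RPKM in injured tissue of day 42 and at 218, 193, 211 and 165 RPKM in uninjured tissue. The day 42 injured values of mice B1, B3 and B9 were the highest of the gene in scar tissue. Sucla2 thus differed, injured minus uninjured, by -3.48 ± 0.13 on day 7 at the most and -2.52 ± 0.13 on day 42 at the least on the log2(RPKM + 1) scale (limma, SE, 4 mice a day; Benjamini-Hochberg adjusted p at most 1.99e-13). It was 1 of 3 genes that rose in the injured region between days 21 and 42, by 0.47 ± 0.13 (adjusted p 0.0114, limma).

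Idh3g, the gamma subunit of the NAD-dependent isocitrate dehydrogenase, stood at the other end of the group. Idh3g had 25.9, 24.5, 20.8 and 26.3 RPKM in the injured libraries of day 3, against 175, 176, 166 and 199 RPKM in the uninjured ones. The day 7 Idh3g values were 19.5, 20.8, 20.2 and 19.3 RPKM in injured and 123, 148, 133 and 103 RPKM in uninjured tissue. Injured values of day 7 were closely grouped, and mouse A7 of day 3 lay beside them. At day 14, Idh3g stood at 31.3, 32.4, 39.3 and 36.8 RPKM in injured against 144, 170.1, 178 and 150.2 RPKM in uninjured tissue. For Idh3g on day 21 the injured libraries gave 37.3, 32.3, 39.2 and 43.7 RPKM and the uninjured libraries 183, 186, 146 and 139 RPKM. Idh3g was at 43.2, 46.2, 36.6 and 34.01 RPKM in injured tissue of day 42 and at 159.8, 159, 145 and 129 RPKM in uninjured tissue. From day 14 on all injured values were above those of days 3 and 7. Idh3g thus differed, injured minus uninjured, by -2.83 ± 0.10 on day 3 at the most and -1.87 ± 0.10 on day 42 at the least on the log2(RPKM + 1) scale (limma, SE, 4 mice a day; Benjamini-Hochberg adjusted p at most 8.29e-13). The partner subunits Idh3a and Idh3b averaged -2.47 and -2.94.

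The other TCA enzymes lay between these. Cs, citrate synthase, which opens the cycle, ranged from 46.1 to 101 RPKM over the 20 injured libraries (median 78.1), against 278 to 567 RPKM over the 20 uninjured ones (median 482). Ogdh and Dlst, subunits of the oxoglutarate dehydrogenase complex, averaged log2 differences of -2.37 and -2.37, Suclg1, the other subunit of succinyl-CoA synthetase, -2.62, Fh1, fumarate hydratase, -2.82 and Mdh2, mitochondrial malate dehydrogenase, -2.35. Ogdh had the mean percentage closest to uninjured tissue among them, 29.98% on day 42. The pyruvate dehydrogenase complex spanned a narrow range: Pdha1 and Pdhb, the subunits of its first enzyme, averaged -2.55 and -2.98, and Dlat and Dld, its acetyltransferase and its dihydrolipoyl dehydrogenase, -2.75 and -2.48.

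Pdk4 encodes the pyruvate dehydrogenase kinase that is induced by fasting and fatty acids in muscle, and it varied most between mice in uninjured tissue (within-day SD 0.68 on the log2 scale). Pdk4 had 26.5, 20.2, 27.4 and 24.4 RPKM in the injured libraries of day 3, against 91.6, 125, 276 and 256 RPKM in the uninjured ones. The day 7 Pdk4 values were 5.76, 6.62, 5.29 and 5.85 RPKM in injured and 52.4, 52.1, 124 and 117 RPKM in uninjured tissue. On day 7 all injured values lay below every other injured value of the gene, while uninjured mice fell into a lower and a higher pair on both days. At day 14, Pdk4 stood at 10.6, 19.5, 14.2 and 24.5 RPKM in injured against 68.8, 102, 55.2 and 268 RPKM in uninjured tissue. For Pdk4 on day 21 the injured libraries gave 22.8, 15.5, 20.6 and 34.1 RPKM and the uninjured libraries 212, 198, 262 and 212 RPKM. Pdk4 was at 21.3, 15.1, 10.2 and 17.4 RPKM in injured tissue of day 42 and at 121, 99.5, 177 and 91.3 RPKM in uninjured tissue. On day 14 mouse A11 was highest in both regions, and on day 21 all uninjured values lay in a narrow range. Pdk4 thus differed, injured minus uninjured, by -3.55 ± 0.32 on day 7 at the most and -2.55 ± 0.32 on day 14 at the least on the log2(RPKM + 1) scale (limma, SE, 4 mice a day; Benjamini-Hochberg adjusted p at most 5.58e-07). Between days 3 and 7 its injured level changed by -1.89 ± 0.24 (adjusted p 1.84e-06), the largest fall of any of the 37 between neighbouring days.

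Pdk2, the other kinase, had the smallest difference of its group. Pdk2 had 4.82, 5.100, 2.85 and 4.94 RPKM in the injured libraries of day 3, against 38.6, 28.04, 29.6 and 34.8 RPKM in the uninjured ones. The day 7 Pdk2 values were 2.56, 3.24, 2.22 and 4.19 RPKM in injured and 12.98, 17.4, 20.3 and 18.2 RPKM in uninjured tissue. Mouse A7 of day 3 stood below the other 3 injured libraries of its day. At day 14, Pdk2 stood at 4.46, 6.01, 7.21 and 7.87 RPKM in injured against 23.4, 23.2, 26.4 and 26.2 RPKM in uninjured tissue. For Pdk2 on day 21 the injured libraries gave 8.19, 6.57, 7.13 and 5.71 RPKM and the uninjured libraries 27.1, 25.1, 19.6 and 21.7 RPKM. Pdk2 was at 5.74, 6.07, 6.43 and 4.58 RPKM in injured tissue of day 42 and at 18.02, 8.91, 28.7 and 23.2 RPKM in uninjured tissue. Uninjured mouse B3 of day 42 was the lowest of its region and came near the highest injured value. Pdk2 thus differed, injured minus uninjured, by -2.65 ± 0.19 on day 3 at the most and -1.52 ± 0.19 on day 42 at the least on the log2(RPKM + 1) scale (limma, SE, 4 mice a day; Benjamini-Hochberg adjusted p at most 3.72e-07).

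Within injured tissue most of the genes fell to day 7 and rose again by day 14. Between days 3 and 7, 28 of 37 fell (12 of the fatty acid group and 16 of the other) and none rose (limma, adjusted p under 0.05; 32.7% of all genes fell and 27.7% rose). The medians were -0.44 for the fatty acid group and -0.52 for the pyruvate and TCA group, against -0.036 for all genes. Pdk4 led, followed by Acaa2 (-1.08 ± 0.13), Mdh2 (-0.94 ± 0.17), Dlst (-0.85 ± 0.11) and Cd36 (-0.82 ± 0.20). The 9 genes that did not pass were Fabp3, Acadm, Acads, Hadhb, Hadh, Echs1, Decr1, Etfa and Ogdh, at -0.69 (Fabp3) to 0.00848 (Echs1). Scaled to the recovered reads, 35.3% of all calls of this step were higher on day 7, against 45.9% for the deposited values.

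Between days 7 and 14, 35 of 37 rose in injured tissue, 18 of the fatty acid group and all 17 of the other, where 21.9% of all genes rose (limma). The medians were 0.71 and 0.87, against 0.014 for all genes, with Fabp3 (1.98 ± 0.30), Idh2 (1.63 ± 0.17) and Pdk4 (1.34 ± 0.24) in front. Acads did not pass, at 0.28 ± 0.16 (adjusted p 0.164). Slc27a1 went the other way, at -0.25 ± 0.098 (adjusted p 0.0474; 21.2% of all genes fell), a call that 12 of the 20 runs without 1 mouse and the scaling to recovered reads did not give. None of the 37 was called between days 14 and 21, when 0 of 11390 genes were called by limma and 1496 had an unadjusted p under 0.05. Between days 21 and 42, 3 rose, Idh3b (0.48 ± 0.14), Sucla2 and Dld (0.44 ± 0.13), beside 11.2% of all genes. That count was 1 without day 21 mouse A4 or day 42 mouse B1 or B3, and 6 without day 21 mouse A11 or day 42 mouse B12. Over the 5 days 36 of 37 changed in injured tissue by the F test, as did 87.6% of all genes.

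The contractile genes were also lowest on day 7 in injured tissue, with median sums of 3392, 2389, 5495, 4823 and 6145 RPKM on days 3, 7, 14, 21 and 42. Fibroblast markers were highest on day 7, at 2232, 6411, 4154, 3476 and 2783 RPKM, and macrophage and monocyte markers were at 1264, 1736, 813, 764 and 754 RPKM. Their part in the course of the 37 genes was not tested.

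**Figure D3:**
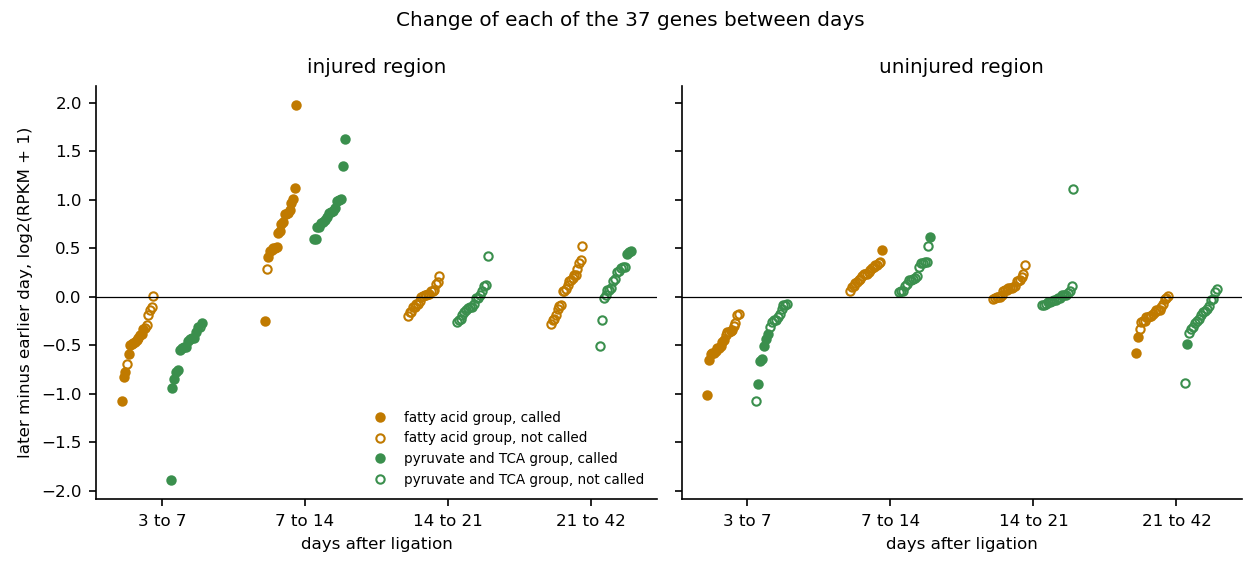
Change between neighbouring days in log2(RPKM + 1) for each of the 37 genes (points, sorted within a group) in injured (left) and uninjured (right) tissue; filled points were called by limma at an adjusted p under 0.05. Injured tissue shows the fall from day 3 to 7 and the rise from day 7 to 14, and uninjured tissue a fall from day 3 to 7.

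In uninjured tissue most calls fell between days 3 and 7. Between days 3 and 7, 18 of 37 fell and none rose, 12 of the fatty acid group and 6 of the other (limma; 14.5% of all genes fell and 10.4% rose). The medians were -0.46 for the fatty acid group and -0.26 for the other group, against -0.028 for all genes. They were -0.24 and -0.11 under quantile normalization and -0.28 and -0.086 under recovered reads. The 12 contractile genes had a median of -0.34 in the same step (5 of 12 fell), with median sums of 23744 RPKM on day 7 and 28320.3 RPKM on day 3, and their part in the result was not tested. Of the called genes Slc27a1 fell most, then Pdk2 (-0.90 ± 0.23), Ogdh (-0.66 ± 0.14), Acaa2 (-0.66 ± 0.19) and Idh2 (-0.64 ± 0.15), while Pdk4 stood at -1.08 ± 0.45 and did not pass (adjusted p 0.0888). The count of 18 was 8 without day 3 mouse A8 or day 7 mouse A7 and 9 without day 7 mouse A12. It was 12 under quantile normalization and under scaling to recovered reads, which put 83.9% of all calls of this step on the higher side, against 41.7% for the deposited values.

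Between days 7 and 14 the uninjured region had 2 genes that rose, Idh2 and Acads (0.48 ± 0.15), beside 7.49% of all genes. With the detection of Xist in the mouse (above 1 RPKM in either region) as a covariate the count was 17. The share of all genes called with this covariate is not given here, for this step or for days 21 to 42. Whether the 37 genes differ from the whole table in that fit therefore cannot be told. How mice with Xist were spread over the days is not given here. Without day 7 mouse A9, day 14 mouse A4 or day 42 mouse B3 the count was 5. It was 1 without any 1 of 5 other mice (day 3 A7, day 7 A7 or A12, day 14 A5 or A6). Recovered reads put 19.3% of all calls of the step on the higher side and quantile normalization 45.7%, against 57.4%. No gene of the 37 was called between days 14 and 21, when 1 of 11390 genes was (0.00878%) and 573 had an unadjusted p under 0.05. Echs1 (-0.41 ± 0.12), Etfb (-0.58 ± 0.18) and Cs (-0.48 ± 0.12) fell between days 21 and 42, where 10.1% of all genes fell. This count was 5 without day 21 mouse A11, 6 without day 42 mouse B12, 1 without day 42 mouse B9 and 8 with Xist as a covariate, and of all calls of the step 60.3% (quantile) and 60.2% (recovered reads) were higher, against 50.7%. By the F test over the days 16 of 37 changed in uninjured tissue, against 47.2% of all genes, a share close to the background.

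By the interaction F test of limma, the distance between regions itself differed among days for 30 of 37 genes (74.3% of all genes). The 7 that did not pass were Cd36, Cpt1b, Cpt2, Acads, Acaa2, Etfb and Pdk4. Between days 3 and 7 the injured level moved further down relative to the uninjured one for 4 genes, Cd36 (-0.65 ± 0.21), Idh3a (-0.59 ± 0.20), Dlst (-0.61 ± 0.15) and Dlat (-0.47 ± 0.16), and up for Slc27a1 (0.53 ± 0.18). Of all genes 22.1% moved down and 23.8% up, so that this step called a smaller share of the 37 than of the table. The 4 were 2 without day 3 mouse A8 or day 7 mouse A10 and 7 without day 21 mouse A4. They were 15 under quantile normalization and 16 under scaling to recovered reads, where 23.1% of all calls were higher, against 51.9%, and the median of all genes lay at -0.20.

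The single gene that moved up, Slc27a1, was not called under recovered reads or without day 3 mouse A8 or day 7 mouse A12, and a second gene joined it without day 3 mouse A5, day 21 mouse A11 or day 42 mouse B3. Between days 7 and 14 the regions drew closer for 22 genes, 10 of the fatty acid group and 12 of the other, where 10.7% of all genes moved that way (limma). Fabp3 (1.63 ± 0.32), Acadl (1.01 ± 0.21), Idh2 (1.01 ± 0.22) and Idh3a (0.96 ± 0.20) led among those called, and the medians were 0.50 for the fatty acid group and 0.63 for the other group, against -0.013 for all genes. The count of 22 was 8 without day 7 mouse A10, 14 without day 14 mouse A6 and 10 without day 14 mouse A11. Recovered reads put 75.9% of all calls of the step on the higher side, against 45.7%, and gave 28.

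Slc27a1 moved apart again in that step (-0.56 ± 0.18, beside 12.7% of all genes), a call not given under recovered reads or without day 7 mouse A10 or A12 or day 14 mouse A5, A6 or A11. None of the 37 was called between days 14 and 21, when 0 of 11390 genes were called by limma and 619 had an unadjusted p under 0.05. Fh1 alone was called between days 21 and 42 (0.50 ± 0.15), beside 4.58% of all genes. That count was 15 without day 21 mouse A11, 6 without day 42 mouse B12, and 0 without any of day 21 A3, A4 or A10 or day 42 B1, B3 or B9; in the fit with no replicate block it was 0 as well.

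**Figure D4:**
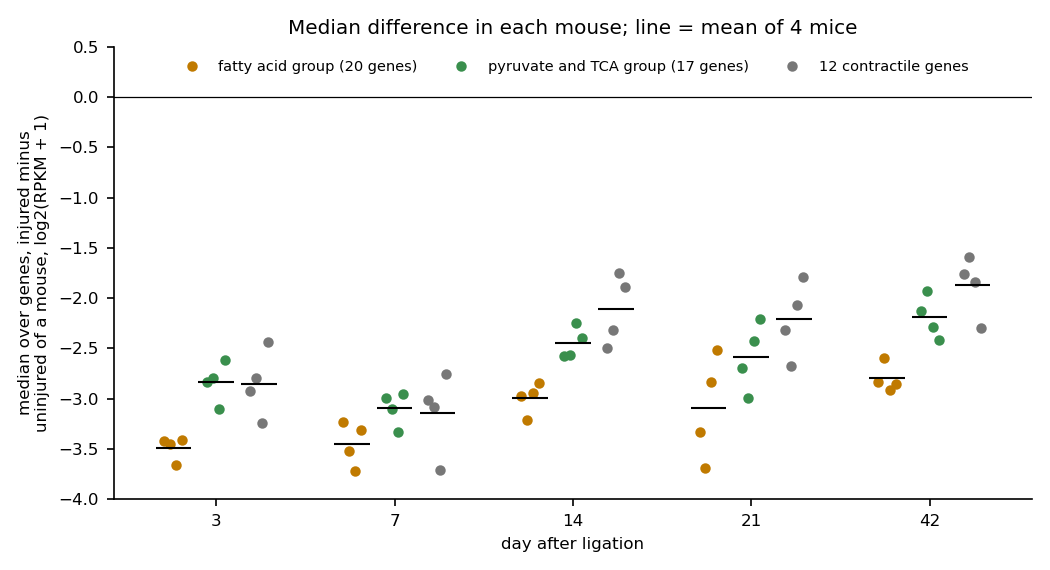
Median over the genes of a set of the injured minus uninjured difference in log2(RPKM + 1) within each mouse, by day, for the fatty acid group, the pyruvate and TCA group and the 12 contractile genes; lines are means of 4 mice. The mean of the fatty acid group lies lowest on every day, and the means of all 3 sets lie closer to 0 on days 14, 21 and 42 than on days 3 and 7. The contractile points are medians over the 12 genes, not the mean log2 level used as a scale for the relative differences.

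On a scale that takes the same amount from every gene of a library, the distance between the groups stays as it was. The region differences were measured on such a scale, against the mean log2 level of the 12 contractile genes of the same library. Relative to those genes the fatty acid group had 7, 4, 14, 12 and 14 of 20 genes lower and 4, 6, 2, 2 and 1 higher in injured tissue on days 3, 7, 14, 21 and 42 (limma, adjusted p under 0.05). In the pyruvate and TCA group 1, 1, 4, 4 and 4 of 17 were lower and 11, 9, 1, 2 and 2 higher. Nearly all genes of the table were less far below uninjured tissue than the contractile genes, or were not below it. On this scale 0.685%, 0.562%, 1.3%, 1.04% and 1.21% of all genes were therefore lower and 97.8%, 98.3%, 95%, 95.9% and 94.6% higher. The medians of the fatty acid group were -0.20, 0.074, -0.67, -0.60 and -0.69 and those of the pyruvate and TCA group 0.48, 0.39, -0.21, -0.099 and -0.035, against 3.36, 3.59, 2.35, 2.55 and 2.14 for all genes. The medians of both groups lay far nearer to 0 than that of all genes on every day.

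Fabp3, Acsl1, Acaa2, Eci1 and Idh2 were lower than the contractile genes on all 5 days. Acaa2 stood at -0.42, -0.61, -1.54, -1.25 and -1.64 and Fabp3 at -1.53, -1.47, -1.07, -1.31 and -1.20 on days 3, 7, 14, 21 and 42. Slc27a1 and Pdk2 were higher on all 5 days, Pdk2 at 0.66, 1.37, 0.49, 0.89 and 0.59, although with the short list described next Pdk2 passed only on days 7 and 21. From day 14 on, the lower genes also included Cd36, Acadm, Acadvl, Hadha, Hadhb, Decr1, Etfb and Etfdh of the fatty acid group on each of the 3 days, and Idh3b and Sucla2 of the other group.

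Which contractile genes set the scale mattered. With a short list of Actn2, Tnnc1, Tnnt2 and Ttn in place of the 12, 17, 14, 29, 27 and 24 of 37 genes were lower and 4, 5, 1, 2 and 1 higher, against 8, 5, 18, 16 and 18 lower and 15, 15, 3, 4 and 3 higher with the 12. The medians were then -0.80, -0.41, -1.04, -0.99 and -0.98 for the fatty acid group and -0.11, -0.096, -0.58, -0.49 and -0.33 for the other, so the signs of the pyruvate and TCA group on days 3 and 7 and of the fatty acid group on day 7 depend on the list. The values also depend on the use of the mean of the 12 genes: their median region differences were -2.86 on day 3 and -3.06 on day 7, beside -2.83 and -3.15 for the pyruvate and TCA group and -3.51 and -3.47 for the fatty acid group. The fatty acid median was the lower one with either list on every day. That order was fixed, because either list shifts all genes alike, and it was the same in the differences before any such scale. The moderated fit on this scale drew its error almost wholly from the spread over all genes. With each gene's own spread, chosen after seeing the data, 10, 8, 22, 18 and 19 genes were lower and 16, 18, 3, 6 and 5 higher. Shares of all genes called with the short list or with each gene's own spread are not given here. Those counts of the 37 therefore cannot be set against the whole table. In the moderated fit with the 12 genes, the higher count of day 42 was 1 without mouse B3. The lower count of day 7 was 8 without mouse A10. Cpt1b, called higher on days 3, 7, 14 and 21, depended on the pseudocount of 1: with 0.1 it stood at 0.13, -0.021, -0.24 and -0.13.

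Ratios between related genes within a library are nearly free of scaling between libraries. They were taken after adding 0.1 RPKM to each gene, not 1, and 6 pairs were compared over the 20 mice by a two-sided sign-flip permutation test with 100000 resamples and Benjamini-Hochberg adjustment over the pairs. The ratio of Cpt1b to Cpt1a, the form of other tissues, was lower in injured tissue in 20 of 20 mice, with a mean injured minus uninjured log2 difference of -2.92 (SD 0.63). With 1 RPKM added it was -1.79 (SD 0.26), so its size depends on the pseudocount. Cpt1a itself averaged 20.7, 24.2, 20.6, 22.1 and 16.8 RPKM in injured tissue and 22.7, 19.8, 20.6, 24.7 and 18.7 RPKM in uninjured tissue on the 5 days, was called higher on day 7 and not called on the other days. The ratio of Acsl1 to Acsl4, a synthetase with a preference for arachidonic acid, was lower in all 20 mice and its mean difference was -4.58 (SD 0.68). Its means were -0.87 ± 0.27 in injured and 4.21 ± 0.20 in uninjured tissue on day 7 (log2, SD, n = 4), and the ratio was below 0 in the mean of injured tissue on days 3 and 7, which places Acsl4 above Acsl1 per length there. These tests and those for Fabp3 and Idh2 below each gave p = 1e-05, the smallest that the permutations can give (adjusted p 1.5e-05).

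Fabp3 over Fabp5, the epidermal form found in macrophages and endothelium, differed by -3.90 on average (SD 2.03; lower in 20 of 20 mice), and the distance was far from constant. Its means were 1.28 ± 0.74 in injured and 8.17 ± 0.14 in uninjured tissue on day 3 and 6.02 ± 0.25 in injured and 8.19 ± 0.40 in uninjured tissue on day 42. Fabp5 averaged 24.7, 14.5, 4.07, 3.13 and 2.71 RPKM in injured tissue on the 5 days, against 5.79, 11.5, 7.55, 7.72 and 6.104 RPKM in uninjured tissue, and so was higher in scar on day 3, not called on day 7 and lower from day 14 on. Idh2 over its cytosolic relative Idh1 differed by -2.85 (SD 0.81; lower in 20 of 20 mice).

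The remaining pairs moved less. Mdh2 over cytosolic Mdh1 was higher in injured tissue in 19 of 20 mice, by 0.67 (SD 0.53; permutation p 3e-05, adjusted 3.6e-05), with mean region differences of -2.35 for Mdh2 and -3.05 for Mdh1. Its mean difference was 1.45 on day 3 and 0.32 on day 42. Pdk4 over Pdk2 was lower in 18 of 20 mice and its mean difference was -0.92 (SD 0.92; permutation p 4.1e-04, adjusted 4.1e-04). The 2 mice in which it was higher were both of day 3, where the mean difference was 0.10. With 1 RPKM added the ratio was higher in 1 mouse and lower in 19, and the day 3 mean turned to -0.089.

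**Figure D5:**
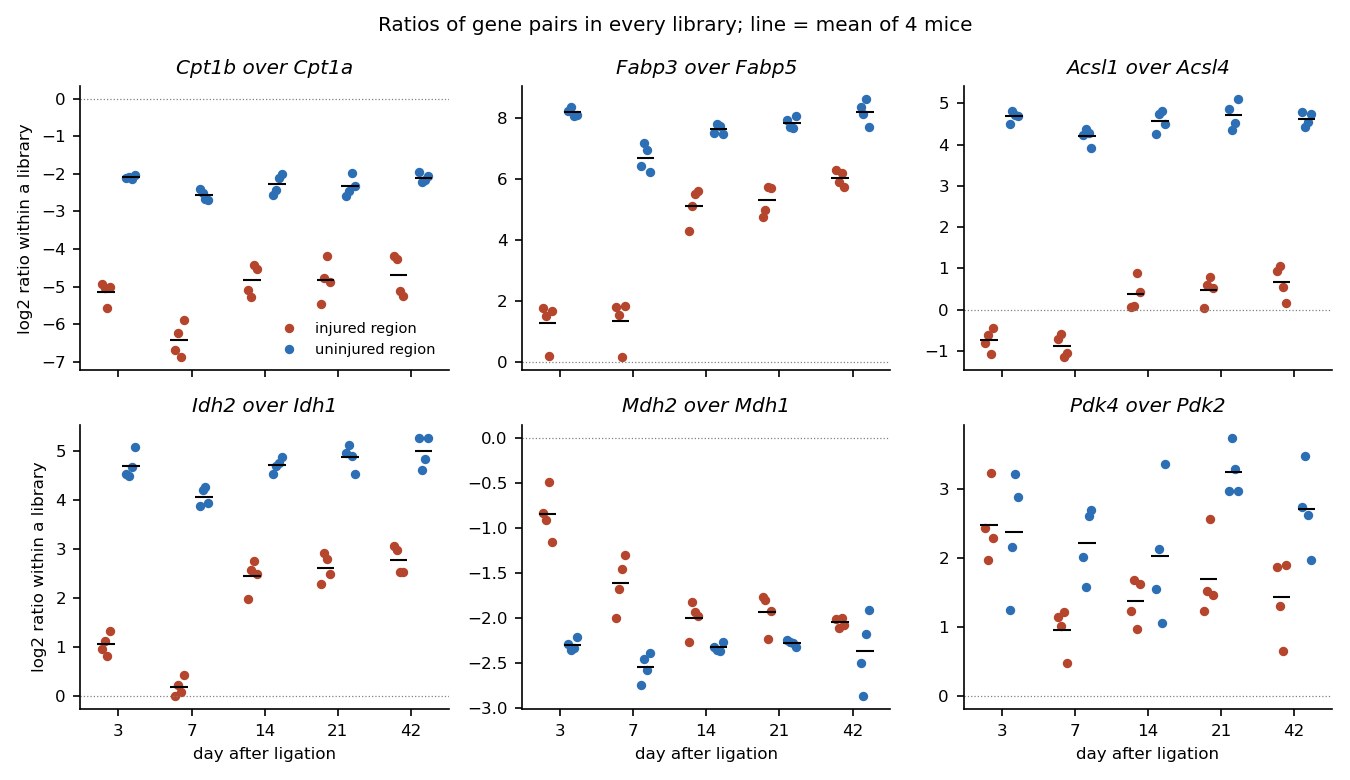
Log2 ratio of RPKM within each library for 6 pairs of related genes, by day, injured region in red at the left and uninjured region in blue at the right of each day; lines are means of 4 mice. The first 4 pairs are apart on every day, Mdh2 over Mdh1 is higher in injured tissue most clearly on day 3, and Pdk4 over Pdk2 overlaps on days 3 and 14.

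Other genes of the same pathways largely went the same way. Of 47 further genes of fatty acid handling, 42 were tested, and 32 of them were lower in injured tissue on all 5 days (median of mean differences -1.49). The lowest were Dgat2, which makes triglycerides (-4.21), Plin5, a lipid droplet protein of oxidative tissue (-4.08), and Ucp3, a mitochondrial carrier of muscle (-3.54). The 5 that were higher on at least 3 days were Cpt1c (1.34), the acyl-CoA synthetases Acsl5 (0.81), Acsl4 (0.78) and Acsl3 (0.26), and Acox3, a peroxisomal oxidase (0.17). Of all genes, 38.7 to 41% were called lower on a single day, so at most 38.7% were lower on all 5 days.

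Of 28 further genes of pyruvate and TCA metabolism, 25 were tested and 22 were lower on all 5 days (median -1.84). Sdhb, a subunit of succinate dehydrogenase (-3.12), Mdh1 (-3.05) and Mpc2, a subunit of the mitochondrial pyruvate carrier (-2.83), were lowest. Only Pdk3 (1.08), a further pyruvate dehydrogenase kinase, and Acly (0.35), which makes cytosolic acetyl-CoA from citrate, were higher on all 5 days. Pdk3 averaged 4.95, 6.57, 4.43, 4.33 and 4.86 RPKM in injured tissue, against 1.67, 2.32, 1.75, 2.03 and 1.53 RPKM in uninjured tissue on the 5 days. The share of all genes that were lower on all 5 days, at most 38.7%, applies here as well. On single days 4611 to 5021 of 11390 genes were called higher. Shares of all genes called higher on at least 3 days, or on all 5, were not worked out.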

How the data were processed

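The authors deposited 1 table of RPKM values, for 11450 genes in 40 libraries. Per the submitters' processing notes, STAR and edgeR were used with mm10; per the labels' protocols, libraries came from a TruSeq kit. Annotation, counting and strand setting: not given in the sources used here. The deposited RPKM are not counts, so tests were run on log2(RPKM + 1) with limma 3.58.1 (statmod 1.5.0, R 4.3.3), moderated robustly along a trend in the mean, for the 11390 genes that reached 1 RPKM in 4 libraries. Benjamini-Hochberg adjustment covered the whole tested table, with calls under 0.05.

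Regions were compared within days by a joint model that had the mouse as a block, and days within each region by a separate model of 20 libraries; each left 15 residual degrees of freedom. Interaction contrasts tested whether the region difference changed. The block rests on the series' design text, which takes both regions from 1 heart, and deviations of both libraries of a mouse correlated at 0.148 to 0.540, over 0.1 in 20 of 20. In the day models, p-values rest on the spread between the labelled mice of a day. In the region model they rest on how the difference between regions varied between those mice. The moderated fits also borrow from the spread of other genes, almost wholly so for the values relative to the contractile genes.

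Whole reads were worked back from the RPKM steps for 11437 of 11450 genes (99.9%, within 0.01 of a whole number). Recovered totals over the library size implied by the RPKM had a median of 1.02 in injured and 1.35 in uninjured libraries (1 injured library of day 3 set to 1). The implied sizes thus part from the recovered totals by region, and what made this difference was not tested. The recovered reads served for depth and 1 alternative scaling.

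The region and day fits were also run on simulated data, but not the fits relative to the contractile genes. The outcome of that run is not given here. Members, gene lists and tests were chosen with earlier results of these data known. Values in every mouse are given for the 3 genes with the largest and the 2 with the smallest mean difference in each group, and for up to 3 genes per region with the smallest p of the F test over days. Of other pathway genes, those higher on at least 3 days and the 3 lowest of each list are named. Pair ratios used 0.1 RPKM as pseudocount. Alternatives were a pseudocount of 0.1 (1 for the pairs), no filter, quantile normalization, scaling to recovered reads, no replicate block, Xist as a covariate, no trend and no robust moderation, a short contractile list and each mouse left out; each gene's own spread was added after seeing the data.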

Additional observations from a re-analysis of the deposited data

Results flagged for a closer look

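In 4 of 110 groups of 4 libraries 1 mouse stood far from the others, past Dixon's 95% critical value; chance flags about 1 in 20 such groups. Slc27a1 in injured tissue of day 42 was high in mouse B3 at 7.23 RPKM, against 5.58, 5.78 and 5.799 RPKM in the other 3. Pdk2 in injured tissue of day 3 was low in mouse A7 at 2.85 RPKM, against 4.82, 4.94 and 5.100 RPKM. Idh2 in uninjured tissue was high in mouse A8 of day 3 at 979 RPKM, against 744, 766 and 774 RPKM, and in mouse B1 of day 42 at 1012 RPKM, against 844, 863 and 867 RPKM.

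The difference between regions changed over the 5 days for 30 of the 37 genes by the limma F test of the interaction. Among the genes with values in every mouse, the Benjamini-Hochberg adjusted p was 1.21e-05 for Hadh, 2.12e-05 for Idh2, 3.55e-05 for Idh3g, 9.98e-05 for Fabp3, 1.1e-04 for Eci1, 6.01e-04 for Sucla2, 0.00554 for Pdk2 and 0.00807 for Slc27a1. Hadh, Idh2, Idh3g, Fabp3, Eci1, Sucla2 and Pdk2 had smaller differences on day 42 than on day 3, and Slc27a1 a larger one. Of all genes, 74.3% changed by this test, and the contractile genes also had smaller differences from day 14 on.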

How the results depend on the processing

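All 37 genes were lower in injured tissue on each day under each alternative run, and without each mouse in turn; the size of the difference depends on the scaling. The medians of the fatty acid group were -2.89, -3.05, -2.30, -2.29 and -2.21 under quantile normalization and -2.99, -3.21, -2.56, -2.66 and -2.37 under scaling to recovered reads on days 3, 7, 14, 21 and 42, and those of the pyruvate and TCA group -2.18, -2.66, -1.69, -1.57 and -1.40 under quantile normalization and -2.31, -2.90, -2.11, -2.17 and -1.72 under recovered reads. Relative to the median of all genes they stood under recovered reads at -3.45, -3.46, -2.91, -3.03 and -2.73 (fatty acid group) and -2.77, -3.15, -2.46, -2.54 and -2.07 (other group). The mouse as a block changed no call between regions within a day; in the fit with no replicate block the count of genes whose regions drew closer between days 21 and 42 was 0, and it was 0 under quantile normalization and 2 under recovered reads, against 1.

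Further values moved as follows, and the cause was not tested. Shares of all genes called with Xist as a covariate are not given here. Region difference, days 3 to 7: 15 (quantile) and 16 (recovered reads) genes lower against 4, 0 higher (recovered reads) against 1, and a pyruvate and TCA median of -0.54 (recovered reads) against -0.28. Days 7 to 14: 0 lower (recovered reads) against 1 and a pyruvate and TCA median of 0.94 (quantile) against 0.63. Injured region, days 7 to 14: 0 lower under recovered reads and 0 with Xist as a covariate, against 1. Uninjured region, days 3 to 7: medians of -0.24 (fatty acid group, quantile) and -0.086 (other group, recovered reads), against -0.46 and -0.26. Days 7 to 14: 1 (quantile), 1 (recovered reads) and 17 (Xist) genes higher against 2, and a pyruvate and TCA median of -0.036 (quantile) against 0.20. Days 21 to 42: 5 (recovered reads) and 8 (Xist) lower against 3, 1 higher (quantile) against 0, and a pyruvate and TCA median of 0.00151 (quantile) against -0.19.

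Relative to the contractile genes, the short list gave 17, 14, 29 and 27 genes lower on days 3, 7, 14 and 21 and 4, 5, 1, 2 and 1 higher on the 5 days, with medians of -0.80, -0.41, -1.04, -0.99 and -0.98 (fatty acid group) and -0.11, -0.096, -0.58, -0.49 and -0.33 (other group). A pseudocount of 0.1 left 1 higher on day 14 and turned Cpt1b to -0.021, -0.24 and -0.13 on days 7, 14 and 21; the short list turned Pdk4 to -0.024 and Idh3g to -0.11 on day 3. Each gene's own spread gave 8 lower on day 7 and 5 higher on day 42. Shares of all genes called under these settings are not given here.

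Leaving out 1 mouse at a time, the counts ranged as follows: injured region, days 7 to 14, 0 to 1 lower, and days 21 to 42, 1 to 6 higher and 0 to 1 lower; uninjured region, days 3 to 7, 8 to 22 lower, days 7 to 14, 1 to 5 higher, and days 21 to 42, 1 to 6 lower. For the region difference they were 2 to 7 lower and 0 to 2 higher (days 3 to 7), 8 to 25 higher and 0 to 1 lower (days 7 to 14) and 0 to 15 higher (days 21 to 42), and relative to the contractile genes 5 to 8 lower on day 7 and 1 to 3 higher on day 42. With no replicate block Pdk4 relative to the contractile genes was not called on days 3, 21 and 42, nor Idh3g for the region difference between days 7 and 14. Calls of single genes named in the text were counted once for each run. Outside the runs that left out 1 mouse, 798 were kept, 25 were lost and 5 turned to the other sign. Within those runs 2683 were kept and 77 were lost. The pair ratios kept their side of the threshold with 1 RPKM in place of 0.1.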
